A study of Mus musculus with 8 samples.

Results

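The respiratory chain of the inner mitochondrial membrane was followed through 105 of the 23481 genes counted in nuclei of the adult mouse midbrain. Members were taken by symbol: the 13 protein genes of mitochondrial DNA (symbols beginning with mt-) and 92 nuclear genes whose symbols begin with Nduf (complex I), Sdh followed by a to d (complex II), Uqcr (complex III), Cox4 to Cox8 (complex IV) or Atp5 (complex V). The choice used no measured value of a member, though it was made with earlier results of these data known. The nuclear genes were 80 subunits and 12 assembly factors (Ndufaf and Sdhaf).

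The study asked how gene expression of dopamine neurons depends on Polycomb repressive complex 2 (PRC2), a histone methyltransferase complex that keeps genes of other cell types silent and of which Eed is a core subunit. Both groups carry the strain label DatCreEed and the cell type label mDA, are 8 months old, and differ in the genotype label, wt or PRC2 mutant. Each group is 1 pool of 3 mice (2 female, 1 male) made into 1 library of sorted nuclei, sequenced on 4 lanes that the deposited table does not keep apart. Dat is the dopamine transporter gene Slc6a3, whose promoter directs Cre to dopamine neurons. The labels do not say whether the wt mice carried Cre or which part of Eed was removed.

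Complexes I, III and IV pass electrons from NADH and succinate to oxygen and pump protons, complex II feeds in electrons from the citric acid cycle, and complex V, the ATP synthase, uses the proton gradient to make ATP. Mitochondrial DNA encodes a core set of subunits of complexes I, III, IV and V, whereas complex II and all other subunits are encoded in the nucleus and imported. Dopamine neurons of the midbrain fire without pause and carry long, highly branched axons, and they are known for their sensitivity to inhibitors of complex I. Mitochondrial transcripts are made and kept in mitochondria, outside the nucleus, so their counts in a preparation of nuclei are counts of RNA that travelled with the nuclei.

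Nuclei were called dopamine nuclei where the 4 genes Th, Slc6a3, Slc18a2 and Ddc (dopamine synthesis, reuptake and vesicle loading) together reached 5 unique molecular identifiers (UMIs, counted RNA molecules) per 10000, and other nuclei below that. There were 1320 dopamine and 452 other nuclei in the wt library and 2875 and 1093 in the mutant library, and 4 barcode sequences occurred in both libraries. The summed depth was 39383984 and 68742978 UMIs in wt and mutant dopamine nuclei, with medians of 24257.5 and 19023 per nucleus, and 7156906 and 19458348 UMIs in other nuclei, with medians of 12471.5 and 14650. The 13 markers listed for midbrain dopamine neurons, 4 of which made the split, summed to 3553 CPM (counts scaled to 1000000 UMIs) in wt and 2215 CPM in mutant dopamine nuclei, and to 366 and 359 CPM in other nuclei, where all 13 were also detected. The genes that split the nuclei were themselves lower in mutant dopamine nuclei, with Th at 74.8 against 178 CPM and Slc6a3 at 191 against 490 CPM, so the classes do not hold the same range of cells in both libraries. The other nuclei were mixed: oligodendrocyte markers summed to 576 CPM in wt and 282 in mutant, astrocyte markers to 365 and 222, and neuron markers to 3619 and 3949. Oligodendrocyte precursor markers were 74.5 and 64.2 CPM there, microglia markers 27.0 and 21.9, and endothelial and pericyte markers 22.2 and 38.0. In dopamine nuclei oligodendrocyte markers were 179 and 155 CPM and astrocyte markers 241 and 300. Of dopamine nuclei, 369 wt and 943 mutant ones had at least 5 glial and vascular marker UMIs per 10000. Of the other lists, the summed GABA neuron markers were 34.0 CPM in wt and 179 CPM in mutant dopamine nuclei, and 9 transcription factor genes known from earlier results on these nuclei to be raised in the mutant (Hoxc4, Pax3, Gata4 and others) were 5.13 and 634 CPM there and 21.4 and 112 CPM in other nuclei. Eed itself was 21.4 CPM in wt and 41.3 CPM in mutant dopamine nuclei, which does not check the labels since its tags may lie outside the deleted part. The part these values have in the results below was not tested, and with 1 library per genotype a difference between genotypes cannot be told apart from one between pools, sorts or preparations.

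Values are CPM of the UMIs summed over a class of nuclei. Each ratio of mutant to wt is given with an exact 95% interval from the binomial split of the counts. These intervals cover counting error only; without replicate libraries no p-value was computed. Log2 ratios were taken after adding 5 CPM to each value, which draws low genes toward 0. A gene was called higher or lower at 1.5-fold on that scale if it had at least 50 UMIs over both libraries. With fewer transcripts per cell and fewer cells of a type both lowering a summed level, these sums do not tell these apart.

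Mitochondrially encoded members were lower in the mutant library in both classes of nuclei. Summed over the 13 genes they stood at 1579 CPM in wt and 1192 CPM in mutant dopamine nuclei, a ratio of 0.755 (95% interval 0.747 to 0.763). In other nuclei the sum was 1947 CPM in wt and 1333 CPM in mutant, a ratio of 0.685 (0.671 to 0.699). All 13 genes were lower in mutant dopamine nuclei, and all 12 genes with enough UMIs were lower in mutant other nuclei. Every one of their intervals lay below 1, and the share of all genes with such an interval is not given here. Of all 16324 genes measured in dopamine nuclei, 44.9% were below 0 on the log2 scale with a median of 0.02, whereas the median of the 13 mitochondrial genes was -0.42. Of 13491 genes measured in other nuclei, 52.3% were below 0 with a median of -0.01, and the median of the 12 mitochondrial genes was -0.57.

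Past 1.5-fold, 1 mitochondrial gene was called lower in dopamine nuclei, where 1.46% of all measured genes were called lower, and 5 in other nuclei, where 1.94% were. The first count was 3 with a pseudocount of 1 CPM and 5 in nuclei of 10000 to 40000 UMIs, and the second was 8 in those nuclei. The shares of all genes called under those settings are not given here. At the main setting no mitochondrial gene was called higher, against 1.99% of all genes in dopamine and 1.00% in other nuclei. The plot of mitochondrial genes by library shows the same order of libraries for each of them.

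**Figure D1:**
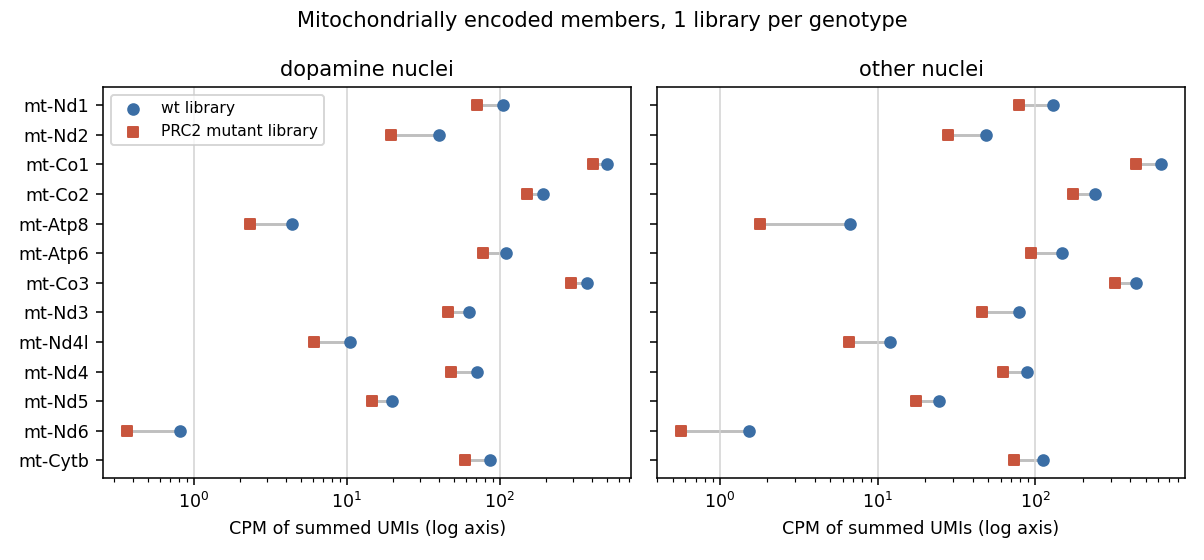
CPM (log axis) of the 13 mitochondrially encoded genes, in map order from mt-Nd1, in dopamine nuclei (left) and other nuclei (right). Circles are the wt library and squares the mutant library. Each square lies left of its circle, from mt-Co1 at 505 and 406 CPM to mt-Nd6 at 0.81 and 0.36 CPM in dopamine nuclei.

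Complex I, the NADH dehydrogenase, has 7 mitochondrial genes, and their sum was 309 CPM in wt and 206 CPM in mutant dopamine nuclei (ratio 0.664, 0.648 to 0.680) and 383 and 240 CPM in other nuclei (0.626, 0.597 to 0.657). mt-Nd2 (chromosome M, 3914 to 4951), a subunit of its proton-pumping arm, was the gene called lower in dopamine nuclei, at 40.1 CPM in wt and 19.6 CPM in mutant, a ratio of 0.488 (0.453 to 0.525). In other nuclei mt-Nd2 was 48.2 and 27.7 CPM, a ratio of 0.575 (0.501 to 0.660). The mt-Nd2 share of all mitochondrial UMIs was 2.54% in wt and 1.64% in mutant dopamine nuclei, and 2.48% and 2.08% in other nuclei, so it was lower relative to the other mitochondrial genes too.

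Most of the other membrane-arm subunits lay between mt-Nd2 and no change. mt-Nd1 was 105 and 71.4 CPM in wt and mutant dopamine nuclei (ratio 0.683) and 129 and 78.9 CPM in other nuclei (0.612). mt-Nd3 was 62.7 and 45.6 CPM in dopamine nuclei (0.727) and 78.8 and 45.9 CPM in other nuclei (0.583). mt-Nd1 and mt-Nd3 were thus called lower in other nuclei and were within 1.5-fold in dopamine nuclei; that difference between classes was not tested. mt-Nd4 was 71.2 and 48.0 CPM in dopamine nuclei (0.674), and mt-Nd5 was 19.7 and 14.6 CPM (0.740). In other nuclei mt-Nd4 had a ratio of 0.701 and mt-Nd5 of 0.723. mt-Nd6, annotated on the minus strand while the other 12 genes lie on the plus strand, had 32 UMIs in wt and 25 in mutant dopamine nuclei (0.448, 0.254 to 0.780). In other nuclei it had 11 UMIs in each library and was not measured.

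Complexes III, IV and V differed in the same direction. mt-Cytb (14145 to 15288), cytochrome b and the complex III subunit encoded in mitochondria, was 86.2 CPM in wt and 59.0 CPM in mutant dopamine nuclei (0.684, 0.654 to 0.716) and 112 and 73.3 CPM in other nuclei (0.654, 0.600 to 0.714). The catalytic core of cytochrome c oxidase, complex IV, is made of mt-Co1, mt-Co2 and mt-Co3, and its summed ratio was the nearest to 1 of the 4 complexes in both classes, 0.793 (0.783 to 0.803) in dopamine and 0.713 (0.695 to 0.731) in other nuclei. mt-Co1 (5328 to 6872), which holds the site where oxygen is reduced, was 505 and 406 CPM in dopamine nuclei (0.804, 0.790 to 0.819) and 625 and 431 CPM in other nuclei (0.689). mt-Co2 was 191 and 151 CPM in dopamine nuclei (0.790), and mt-Co3 was 373 and 291 CPM (0.778); in other nuclei their ratios were 0.729 and 0.739. As shares of mitochondrial UMIs in dopamine nuclei, mt-Co1 was 32.0% in wt and 34.1% in mutant, and mt-Co3 23.6% and 24.4%. Left without mt-Co1 and mt-Co3, the remaining 11 genes had a summed ratio of 0.707 in dopamine nuclei and 0.655 in other nuclei.

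The complex V subunits mt-Atp8 and mt-Atp6, parts of the membrane sector of the ATP synthase, are read from one transcript in overlapping frames, as are the complex I subunits mt-Nd4l and mt-Nd4. The overlaps are printed because reads in them belong to both members of a pair, and the labels do not say how such reads were assigned. Capitals mark the 43 bases shared by mt-Atp8 and mt-Atp6 and the 7 bases shared by mt-Nd4l and mt-Nd4, each with 40 bases on either side, from the GENCODE M21 transcripts of mm10, plus strand, 5′ to 3′.
mt-Atp8 into mt-Atp6, chrM:7887-8009: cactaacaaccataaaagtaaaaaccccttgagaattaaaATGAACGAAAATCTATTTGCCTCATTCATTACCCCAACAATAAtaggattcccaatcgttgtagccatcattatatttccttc
mt-Nd4l into mt-Nd4, chrM:10127-10213: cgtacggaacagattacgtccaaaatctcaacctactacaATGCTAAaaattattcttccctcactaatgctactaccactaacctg
mt-Atp6 was 109 CPM in wt and 77.1 CPM in mutant dopamine nuclei (0.706, 0.678 to 0.735) and 148 and 93.1 CPM in other nuclei (0.630, 0.583 to 0.680). mt-Atp8 had far fewer tags, at 4.37 and 2.31 CPM in dopamine nuclei (0.530, 0.424 to 0.661) and 6.71 and 1.80 CPM in other nuclei (0.268, 0.168 to 0.423). mt-Nd4l was 10.4 and 6.08 CPM in dopamine nuclei (0.584, 0.508 to 0.671) and 12.02 and 6.58 CPM in other nuclei (0.547). In both pairs the upstream, less tagged gene had the lower ratio, and in dopamine nuclei the intervals of mt-Atp8 and mt-Atp6 did not overlap while those of mt-Nd4l and mt-Nd4 (0.640 to 0.709) did.

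The lower mitochondrial level was spread over most nuclei. The median share of a nucleus's UMIs in the 13 genes was 0.155% in wt and 0.122% in mutant dopamine nuclei, and 0.198% and 0.140% in other nuclei. Of 2875 mutant dopamine nuclei 2030 (70.6%) lay under the wt median, as did 797 of 1093 mutant other nuclei (72.9%). The distributions overlapped over nearly their whole range, and the highest share in any nucleus was between 0.870% and 0.944% in the 4 sets. With each nucleus thinned to 2000 UMIs, which left out 35 wt and 27 mutant dopamine nuclei with fewer, 94.2% of wt and 88.7% of mutant dopamine nuclei kept a mitochondrial tag. The share with an mt-Co1 tag was 63.0% and 54.7%, and the share with an mt-Nd2 tag 7.70% and 4.18%. Without thinning, 99.7% of wt and 99.9% of mutant dopamine nuclei had a mitochondrial tag, 98.3% and 98.5% an mt-Co1 tag, and 58.4% and 34.5% an mt-Nd2 tag.

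**Figure D2:**
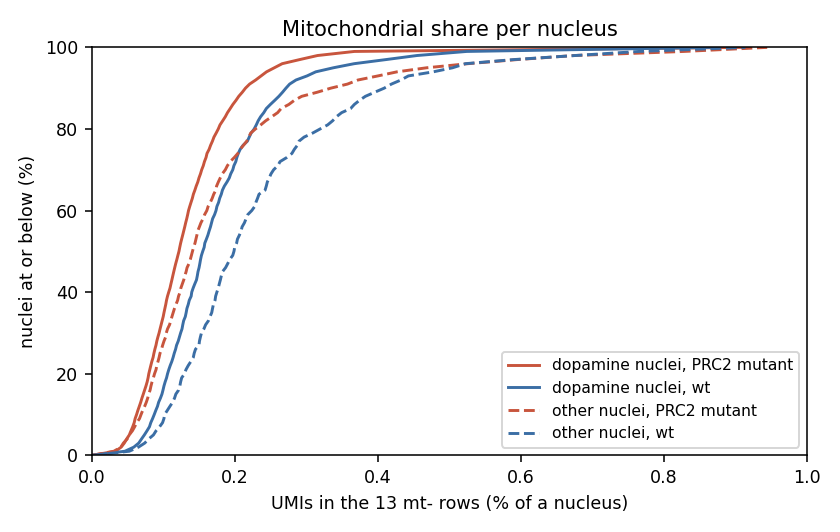
Cumulative percent of nuclei (vertical axis) at or below a given share of UMIs in the 13 mitochondrial genes (horizontal axis, percent of a nucleus's UMIs), for each class and library. The mutant curves lie left of the wt curves of the same class over most of the range, with medians of 0.122% against 0.155% in dopamine nuclei.

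The mitochondrial level was lower in deeper nuclei in both libraries, and in the shallowest nuclei it was not lower in the mutant. Under 5000 UMIs it was 2581 CPM in 60 wt and 2628 CPM in 90 mutant dopamine nuclei, a ratio of 1.02 (0.895 to 1.16). Between 10000 and 20000 UMIs, where the median depths were 15086 and 14708, it was 1857 CPM in wt and 1326 CPM in mutant dopamine nuclei (0.714, 0.697 to 0.732). Between 20000 and 40000 UMIs it was 1626 and 1108 CPM (0.682), and in nuclei over 40000 UMIs it was 1437 and 1114 CPM (0.775). Other nuclei behaved alike, with a ratio of 1.08 (0.993 to 1.17) under 5000 UMIs, 0.724 between 10000 and 20000 UMIs and 0.586 between 20000 and 40000 UMIs. Within bands of the dopamine markers the mitochondrial ratio was 0.654 at 5 to 10 marker UMIs per 10000, 0.686 at 10 to 20 and 0.833 at 20 to 40; above 40 there were 7 mutant nuclei. In nuclei with under 5 glial and vascular marker UMIs per 10000 the ratio was 0.762 in dopamine and 0.680 in other nuclei, so it was about as far from 1 there.

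**Figure D3:**
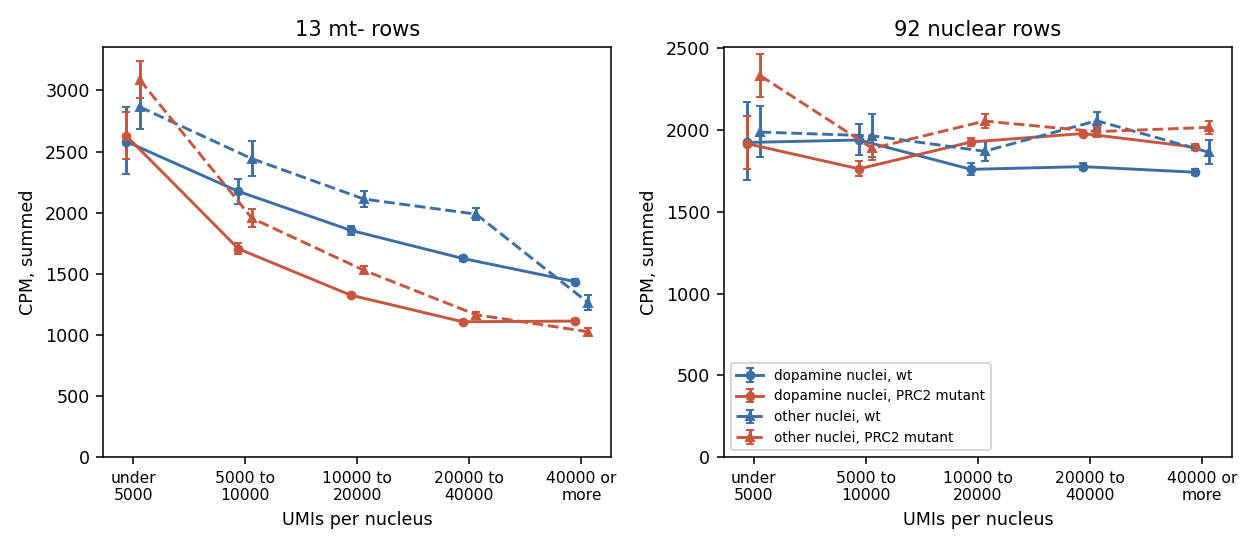
Summed CPM of the 13 mitochondrial genes (left) and the 92 nuclear genes (right) in nuclei grouped by UMIs per nucleus, for each class and library. Bars are exact 95% counting intervals. From 5000 UMIs upward each mutant point of the mitochondrial genes lies below the wt point of its class, while under 5000 UMIs it does not; the nuclear genes lie between 1741 and 2330 CPM, with the dopamine mutant point below wt at 5000 to 10000 UMIs and above it in deeper nuclei.

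Nuclear members did not follow the mitochondrial ones. Their sum over 92 genes was 1760 CPM in wt and 1927 CPM in mutant dopamine nuclei, a ratio of 1.09 (1.08 to 1.10), and 1961 and 2014 CPM in other nuclei, a ratio of 1.03 (1.01 to 1.05). No nuclear member was called higher or lower in dopamine nuclei, beside the 1.99% and 1.46% of all genes given above. In other nuclei none was called higher and 1, Atp5o, lower. Small positive log2 ratios were the rule: 72 of the 89 measured nuclear members were above 0 in dopamine nuclei, where 55.1% of all genes were, with a median of 0.11 against 0.02. In other nuclei 61 of 87 were above 0, where 47.7% of all genes were, with a median of 0.07 against -0.01. The interval lay above 1 for 42 and below 1 for 7 of the 89 in dopamine nuclei, and above 1 for 10 and below 1 for 5 of the 87 in other nuclei. The shares of all genes with such intervals are not given here, so these counts describe the members only. Of the 87 members measured in both classes 54 were above 0 in both and 10 below 0 in both. The nuclear ratio varied with depth in both classes. In dopamine nuclei the sum was lower in the mutant between 5000 and 10000 UMIs (1938 and 1762 CPM, ratio 0.909, 0.860 to 0.961). It was higher in the 3 deeper groups, with ratios of 1.10, 1.11 and 1.09. In other nuclei the ratio was 1.17 (1.07 to 1.29) under 5000 UMIs, 0.961 (0.890 to 1.04) at 5000 to 10000 and 1.10 (1.06 to 1.14) at 10000 to 20000. It was 0.968 (0.940 to 0.996) at 20000 to 40000 UMIs and 1.08 (1.04 to 1.13) in deeper other nuclei.

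**Figure D4:**
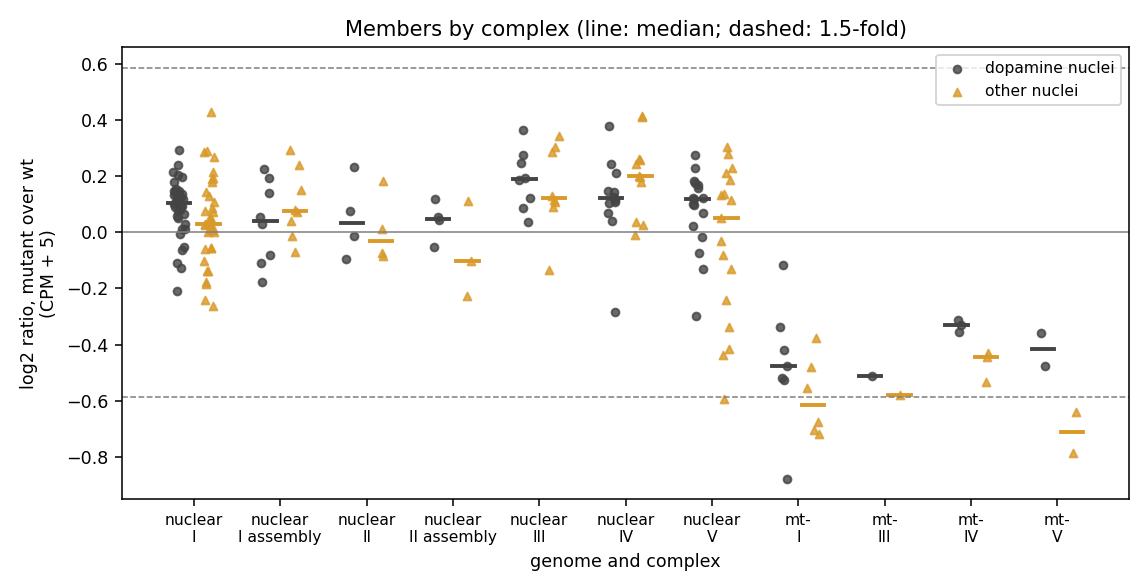
Log2 ratio of mutant over wt (vertical axis, 5 CPM added) for each measured member, by genome and complex. Circles are dopamine and triangles other nuclei, lines are medians and dashed lines mark 1.5-fold. Nuclear members gather just above 0, with medians of 0.19 for complex III and 0.12 for complexes IV and V in dopamine nuclei, and the mitochondrial members lie below 0.

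For complex I, 30 of 36 measured nuclear subunits were above 0 in dopamine nuclei, and their sum was 622 CPM in wt and 682 CPM in mutant (ratio 1.10, 1.08 to 1.11). In other nuclei 26 of 36 were above 0 and the sum was 706 and 716 CPM (1.01, 0.983 to 1.05). Ndufs4 (chromosome 13, 114287795 to 114388258), an accessory subunit at the NADH-oxidising end whose loss causes Leigh syndrome, was 126 CPM in wt and 138 CPM in mutant dopamine nuclei (1.10, 1.06 to 1.13) and 133 and 135 CPM in other nuclei. Ndufs1 (chromosome 1), the iron-sulfur protein that is the largest core subunit, was 68.0 and 73.6 CPM in dopamine nuclei (1.08, 1.03 to 1.14) and 81.7 and 78.4 CPM in other nuclei (0.959, 0.871 to 1.06). Ndufaf5, an assembly factor, was 58.4 and 67.5 CPM in dopamine nuclei (1.16, 1.10 to 1.22) and 67.3 and 66.8 CPM in other nuclei. The 7 core subunits summed to a ratio of 1.08 and the 30 accessory subunits to 1.10 in dopamine nuclei, with overlapping intervals. The 8 Ndufaf assembly factors of complex I summed to 1.03 (1.01 to 1.06).

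Complex II, succinate dehydrogenase, has only nuclear subunits, so no mitochondrial gene sits beside them. The sum of its 4 subunits was 150 CPM in wt and 158 CPM in mutant dopamine nuclei (1.06, 1.03 to 1.09) and 159 and 154 CPM in other nuclei (0.970, 0.906 to 1.04), with 2 of the 4 above 0 and 2 below in each class. Sdha (chromosome 13, 74322254 to 74350280), the flavoprotein that oxidises succinate, was 81.7 and 86.5 CPM in dopamine nuclei (1.06, 1.01 to 1.10). Sdhc, a membrane anchor, was 31.1 and 37.4 CPM (1.20, 1.12 to 1.29). Sdhb, the iron-sulfur subunit, was 31.0 and 28.7 CPM (0.927, 0.863 to 0.997), below the wt level, and is named after its values were seen. Sdhaf3, which helps mature the iron-sulfur subunit, was 29.6 and 32.5 CPM (1.10, 1.02 to 1.18). In other nuclei Sdha was 89.4 and 84.8 CPM, Sdhc 34.7 and 34.9 CPM and Sdhaf3 33.5 and 36.6 CPM, each with an interval that spans 1.

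Complex III, the cytochrome bc1 complex, had the highest summed nuclear ratio of the 5 in dopamine nuclei, with an interval that overlaps that of complex IV. All 8 of its nuclear subunits taken by symbol were above 0 there. Their sum was 137 CPM in wt and 164 CPM in mutant (1.20, 1.16 to 1.24). In other nuclei 7 of these 8 were above 0 and the sum was 150 and 167 CPM (1.11, 1.04 to 1.19). Cyc1, cytochrome c1 of this complex, lies outside the symbol rule and was counted with the electron carriers. It was 17.4 and 16.8 CPM in dopamine nuclei (0.964, 0.876 to 1.06) and 18.6 and 16.2 CPM in other nuclei (0.874, 0.711 to 1.08). Uqcrh (chromosome 4, 116066965 to 116075071), the hinge protein that helps cytochrome c dock, was 20.5 and 27.8 CPM in dopamine nuclei (1.36, 1.25 to 1.48) and 28.6 and 30.8 CPM in other nuclei (1.07, 0.916 to 1.27). Uqcrc2, a core protein facing the matrix, was 50.3 and 57.9 CPM (1.15, 1.09 to 1.22) and its partner Uqcrc1 26.1 and 31.8 CPM (1.22, 1.13 to 1.32) in dopamine nuclei. In other nuclei Uqcrc2 was 50.6 and 55.8 CPM and Uqcrc1 28.8 and 31.6 CPM. The same complex thus had a nuclear sum above and a mitochondrial gene, mt-Cytb, below the wt level in both classes.

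Complex IV, cytochrome c oxidase, had 12 of 14 nuclear members measured in dopamine nuclei, of which 11 were above 0. Their sum was 166 CPM in wt and 191 CPM in mutant (1.15, 1.11 to 1.18), and 184 and 218 CPM in other nuclei (1.19, 1.12 to 1.27). Cox8a (chromosome 19, 7215153 to 7217616), the small subunit found in all tissues, had the highest log2 ratio of all nuclear members in dopamine nuclei, 0.38, at 21.4 CPM in wt and 29.3 CPM in mutant (1.37, 1.26 to 1.48). In other nuclei it was 20.4 and 28.8 CPM (1.41, 1.18 to 1.71). With nuclei thinned as above, the share with a Cox8a tag was not higher in the mutant. It was 5.45% in wt (4.27% to 6.83%) and 5.16% in mutant dopamine nuclei (4.38% to 6.04%). In other nuclei it was 6.33% and 5.20%, with overlapping intervals. The thinned shares of Ndufs4, Sdha, Ndufs1 and Uqcrh were each higher in the mutant in both classes. The cause of this difference was not tested. Cox7b (X chromosome), a small subunit of the oxidase, was 27.5 and 32.6 CPM in dopamine nuclei (1.18, 1.10 to 1.28), and Cox6b1, which faces the cytochrome c side, 18.5 and 20.3 CPM (1.10, 1.00 to 1.20). In other nuclei Cox7b was 32.6 and 37.5 CPM and Cox6b1 19.1 and 22.7 CPM.

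Complex V, the ATP synthase, had 13 of 17 nuclear members above 0 in dopamine nuclei, with sums of 400 CPM in wt and 436 CPM in mutant (1.09, 1.07 to 1.11). In other nuclei 9 of 17 were above 0 and the sums were 451 and 436 CPM (0.966, 0.927 to 1.01). Atp5c1, a subunit of its central stalk, was 49.7 and 61.2 CPM in dopamine nuclei (1.23, 1.17 to 1.30). Of its catalytic head, Atp5a1 was 47.8 and 53.9 CPM (1.13) and the catalytic Atp5b 43.2 and 49.7 CPM (1.15) in dopamine nuclei. In other nuclei Atp5c1 was 72.0 and 65.2 CPM (0.906, 0.817 to 1.01), Atp5a1 46.0 and 51.0 CPM and Atp5b 47.2 and 49.1 CPM. Atp5s (chromosome 12, 69724950 to 69744660), also called factor B, had the lowest log2 ratio of the nuclear members in dopamine nuclei, -0.30, at 25.3 and 19.6 CPM (0.775, 0.714 to 0.842), and was 26.4 and 18.2 CPM in other nuclei (0.689, 0.576 to 0.826).

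Atp5o, the subunit that ties the head to the outer stalk, was the nuclear member called lower in other nuclei, at 30.6 CPM in wt and 18.6 CPM in mutant (0.608, 0.513 to 0.722). In dopamine nuclei it was 24.7 and 22.1 CPM (0.895, 0.825 to 0.971). A second row of the table with that name, Atp5o.1, was 8.80 and 5.34 CPM in other nuclei (0.607, 0.440 to 0.844) and 6.27 and 6.44 CPM in dopamine nuclei. GENCODE M21 has 2 overlapping genes named Atp5o on the minus strand of chromosome 16, at 91684398 to 91926982 and at 91925214 to 91931687, and the table does not say which row is which, so tags may be split between them. Leaving out other nuclei with glial or vascular markers, median-of-ratios scaling and the window of 10000 to 40000 UMIs each ended the call of Atp5o. Of the glial and vascular markers given above, those of endothelial cells and pericytes were higher in mutant other nuclei and the rest lower. The part of these markers in the call was not tested.

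Several complex IV subunits have tissue-specific isoforms, and of these Cox7a1, Cox4i2 and Cox6b2 had few tags in these nuclei. Cox7a2, the widely expressed form, was 12.04 CPM in wt and 15.2 CPM in mutant dopamine nuclei (1.26, 1.13 to 1.41), whereas Cox7a1, the heart and muscle form, had 10 and 7 UMIs. Cox7a2l, which joins complexes III and IV into supercomplexes, was 14.8 and 15.3 CPM. Cox6a1 was 15.6 and 17.5 CPM (1.12, 1.01 to 1.23). Cox4i2, the form induced by low oxygen, had 3 and 7 UMIs, and Cox6b2, the testis form, 26 and 78 UMIs (1.72, 1.09 to 2.79) in dopamine nuclei. Cox7b2, a relative of Cox7b on chromosome 5, had the second lowest log2 ratio of the nuclear members, -0.28, at 5.002 CPM in wt and 3.215 CPM in mutant (0.643, 0.528 to 0.783); in other nuclei it was 3.21 and 4.73 CPM (1.47, 0.924 to 2.44).

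The 3 genes that encode an identical c-ring protein of the ATP synthase had intervals that overlapped one another in dopamine nuclei, and none was called in either class. In dopamine nuclei Atp5g1 was 17.5 and 18.6 CPM (1.06, 0.967 to 1.17), Atp5g2 18.7 and 17.5 CPM (0.938, 0.855 to 1.03) and Atp5g3 14.2 and 15.5 CPM (1.09, 0.986 to 1.21). In other nuclei Atp5g2 was 21.8 and 16.2 CPM (0.743, 0.611 to 0.906) while Atp5g1 and Atp5g3 were at 1.20 (0.980 to 1.49) and 1.13 (0.902 to 1.42). Ndufa4, counted with complex I by its symbol although its protein is known to sit in complex IV, was 8.33 and 10.7 CPM in dopamine nuclei (1.29, 1.13 to 1.47), and its relative Ndufa4l2, a target of the low-oxygen response, had 10 and 8 UMIs.

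The sequences before the start sites show what nuclear members share in DNA. Of the 92, 76 had a RefSeq promoter (GRCm38.p6, 250 bases before to 50 after the start, 300 in all). Both strands were searched for 6 fixed motifs. The site of NRF1, the nuclear respiratory factor that activates many respiratory genes, spelled GCGCA and GCGC with any base between them, was in 21 of the 76 (27.6%), against 7.86% of 15921 genes of the table with such a promoter and 5.19% of all 27025 promoters listed by gene. The YY1 site AAGATGGC was in 13.2% of members and 3.92% of genes of the table, and the site of estrogen-related receptors, TCAAGGTCA, in 2 members (2.63%) against 0.358%. The ETS site CCGGAAGT, bound by GABP among others, was in 5 members (6.58% against 6.29%), the GC box GGGCGG in 47.4% against 53.8%, and the TATA box letters TATAAA in 9.21% against 11.7%. Of 66 mitochondrial ribosome genes with such a promoter, 19.7% held the NRF1 site, 18.2% the YY1 site, 18.2% the ETS site and 0% the receptor site. The NRF1 and YY1 shares above those of all genes are thus not particular to the respiratory chain. A match describes letters in a window and shows no binding.

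For each complex the subunit with the highest log2 ratio in dopamine nuclei among those with a promoter was looked at over the 150 bases before its first listed RefSeq start. The 3 with a match there are printed 5′ to 3′ along the gene, all on the minus strand, with capitals for the NRF1 match in Ndufs5 and Sdha and for the ETS match, read on the other strand, in Uqcrh.
Ndufs5, complex I, chr4:123718187-123718336: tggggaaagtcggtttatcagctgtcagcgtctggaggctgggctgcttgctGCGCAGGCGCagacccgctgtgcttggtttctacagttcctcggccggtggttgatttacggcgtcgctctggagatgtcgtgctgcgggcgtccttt
Sdha, complex II, chr13:74350241-74350390: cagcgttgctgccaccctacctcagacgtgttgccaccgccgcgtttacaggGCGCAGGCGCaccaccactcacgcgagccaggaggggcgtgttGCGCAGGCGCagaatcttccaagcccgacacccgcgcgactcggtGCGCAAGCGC
Uqcrh, complex III, chr4:116075071-116075220: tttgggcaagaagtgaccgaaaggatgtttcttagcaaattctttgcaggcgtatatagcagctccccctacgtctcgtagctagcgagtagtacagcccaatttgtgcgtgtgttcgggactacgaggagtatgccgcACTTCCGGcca
Sdha holds 3 NRF1 matches in this stretch. Cox8a and Atp5c1 hold none of the NRF1, ETS, YY1 and receptor sites in theirs; 2 ETS matches of Cox8a reach into or lie in the bases after its start, and a second listed promoter of Atp5c1, with a start further along the gene, holds 1 NRF1 match. Ndufs5, a small accessory subunit, was 8.51 and 11.5 CPM in dopamine nuclei (1.36, 1.19 to 1.55) and 9.92 and 13.2 CPM in other nuclei (1.33, 1.02 to 1.76). The median log2 ratio in dopamine nuclei was 0.12 for the 21 measured members with an NRF1 match and 0.10 for the 54 without, and 0.19 for the 5 with and 0.10 for the 70 without an ETS match. For the other motifs members with a match had the lower median: 0.04 with against 0.12 without for YY1, 0.04 against 0.12 for the receptor site (2 members with), 0.09 against 0.12 for the GC box and 0.03 against 0.11 for the TATA box letters. These medians are descriptions, and no difference between them was tested.

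Genes that serve the chain from outside it were looked at by list. None of the members of the lists below was called higher or lower in dopamine nuclei, where 1.99% of all genes were called higher and 1.46% lower. The counts above 0 in these lists stand beside 55.1% of all genes above 0 in dopamine nuclei and 47.7% in other nuclei. Of 32 electron carrier and assembly genes 20 were above 0 there (summed ratio 1.07, 1.05 to 1.09). The assembly genes were mostly those of complexes III and IV, with some of I and V, and Cyc1 was counted here. Ttc19, which acts on complex III, was 117 CPM in wt and 125 CPM in mutant dopamine nuclei. Of 21 genes for upkeep and transcription of mitochondrial DNA, the machinery that makes the mt- transcripts, 8 were above 0 and 13 below in dopamine nuclei, with sums of 383 and 384 CPM (1.00, 0.982 to 1.02). Lrpprc, which stabilises mitochondrial mRNA, was 108 and 116 CPM in dopamine nuclei (1.07, 1.03 to 1.11) and 133 and 121 CPM in other nuclei (0.908, 0.842 to 0.980). In other nuclei 6 of those 21 were above 0 and the summed ratio was 0.949 (0.909 to 0.990). The mitochondrial ribosome, which translates only the mt- transcripts, had 46 of 75 genes above 0 in dopamine nuclei (1.02, 1.01 to 1.03) and 37 of 75 in other nuclei (0.957, 0.932 to 0.983), with Mrps9 at 62.3 and 68.2 CPM in dopamine nuclei.

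Regulators of respiratory genes summed to 671 CPM in wt and 766 CPM in mutant dopamine nuclei (1.14, 1.13 to 1.16), with 10 of 12 above 0, and to 994 and 966 CPM in other nuclei (0.972, 0.946 to 0.999), with 4 of 12 above 0. Of these Tfeb, a regulator of lysosome genes, was 10.6 and 17.0 CPM in dopamine nuclei (1.60, 1.43 to 1.79; within 1.5-fold once 5 CPM were added) and 22.4 and 18.6 CPM in other nuclei. Ppargc1a, a coactivator of mitochondrial genes, was 44.6 and 60.8 CPM (1.36, 1.29 to 1.44) in dopamine nuclei and 105 and 87.8 CPM (0.837, 0.767 to 0.913) in other nuclei. Both are named after their values were seen. The gene with the highest level on this list, Esrrg, a receptor that activates oxidative genes, was 260 and 291 CPM in dopamine nuclei (1.12, 1.09 to 1.15) and 428 and 417 CPM in other nuclei. Of 17 citric acid cycle genes 12 were above 0 in dopamine nuclei (1.11, 1.09 to 1.12) and 8 in other nuclei (1.00, 0.971 to 1.03), and Ogdh, which makes succinyl-CoA, was 153 and 182 CPM in dopamine nuclei (1.19, 1.15 to 1.23). Of 16 glycolysis genes 12 were above 0 in each class, with summed ratios of 1.01 (0.996 to 1.02) and 1.05 (1.02 to 1.08); Pfkp, a phosphofructokinase, was 227.6 and 199.7 CPM in dopamine nuclei (0.877, 0.854 to 0.901). Mitochondrial antioxidant and uncoupling genes had 6 of 8 above 0 in dopamine nuclei (1.04, 1.01 to 1.06), with Slc25a27, a brain uncoupling protein, at 117 and 121 CPM.

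Lists that bear on RNA retained in or carried with nuclei stood as follows. The 84 cytosolic ribosome genes summed to 712 CPM in wt and 726 CPM in mutant dopamine nuclei (1.02, 1.00 to 1.03) and to 724 and 781 CPM in other nuclei (1.08, 1.05 to 1.11), with Rpl11 at 35.2 and 32.2 CPM in dopamine nuclei. The 4 nuclear retained RNAs that were counted, others of the list being absent, summed to ratios of 1.17 in dopamine and 1.10 in other nuclei. Their sum in dopamine nuclei was 5784 CPM in wt and 6775 CPM in mutant. Snhg11 made up most of it, at 4677 and 5428 CPM, so the sum mainly describes that gene. Neat1, the RNA scaffold of paraspeckles, was the list member called lower in other nuclei, at 144 and 48.9 CPM (0.339, 0.310 to 0.370), and is named after its values were seen. Over whole classes neither list had a summed ratio below 1, and the mitochondrial genes had 0.755 and 0.685. By depth the ribosome ratio in dopamine nuclei was 1.18 under 5000 UMIs, 0.818 at 5000 to 10000 and 0.951 at 10000 to 20000. It was 0.999 at 20000 to 40000 UMIs and 1.02 in deeper nuclei. In other nuclei grouped by depth it lay between 0.985 and 1.53. The part of RNA carried with nuclei was not tested.

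Across nuclei of a library, the level of nuclear members went with the mitochondrial share, more so in wt for dopamine nuclei and in mutant for other nuclei. With nuclei ranked by mitochondrial share and divided into 4 equal groups, and CPM taken without mitochondrial UMIs, the nuclear members went from 1605 CPM in the lowest to 2025 CPM in the highest group of wt dopamine nuclei. In mutant dopamine nuclei they went from 1896 to 2007 CPM, so the genotypes differed in the lowest group (ratio 1.18, 1.16 to 1.20) and hardly in the highest (0.991, 0.970 to 1.01). In other nuclei they went from 1880 to 2196 CPM in wt and from 1913 to 2426 CPM in mutant, with ratios of 1.02 (0.984 to 1.05) in the lowest and 1.10 (1.05 to 1.16) in the highest group. Cytosolic ribosome genes went from 596 to 940 CPM in wt and from 691 to 837 CPM in mutant dopamine nuclei, and from 572 to 1054 CPM and from 649 to 1345 CPM in other nuclei. The highest groups were also the shallowest, in dopamine nuclei with medians of 18001 UMIs in wt and 12567 in mutant nuclei against 27801.5 and 24257 in the lowest.

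**Figure D5:**
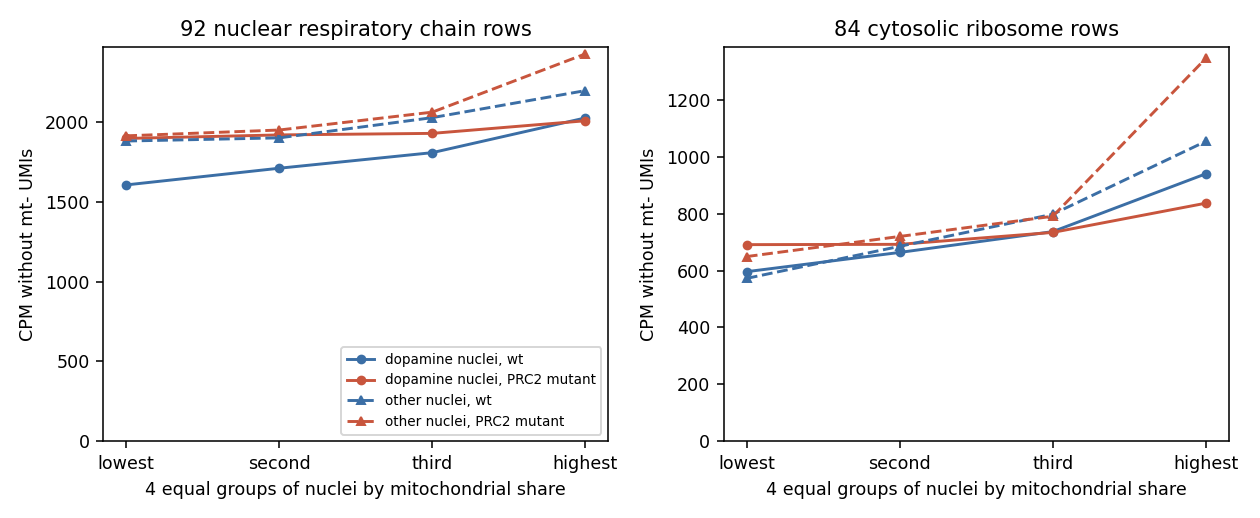
CPM without mitochondrial UMIs of the 92 nuclear respiratory genes (left) and 84 cytosolic ribosome genes (right) in 4 equal groups of nuclei ordered by mitochondrial share, for each class and library. In dopamine nuclei the nuclear genes run from 1605 to 2025 CPM in wt and from 1896 to 2007 CPM in mutant, so the lines meet at the highest group; in other nuclei the mutant line ends above the wt line.

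Mutant dopamine nuclei were further divided by whether they held a tag of any of the 9 raised transcription factor genes. Among nuclei of 10000 to 20000 UMIs, 753 with such a tag had nuclear members at 1993 CPM and 244 without had them at 1708 CPM, a ratio of 1.17 (1.13 to 1.20). The 321 wt nuclei without a tag at that depth stood at 1755 CPM, and untagged mutant over untagged wt was 0.973 (0.941 to 1.01). Mitochondrial members went the other way, with 1291 CPM in tagged and 1441 CPM in untagged mutant nuclei (0.896, 0.867 to 0.925). Untagged mutant over untagged wt was 0.786 for the mitochondrial members (1441 against 1835 CPM, 0.759 to 0.813). Over all dopamine nuclei of at least 5000 UMIs the contrasts differed in size. There the mitochondrial level was 1154 CPM in 2277 tagged and 1460 CPM in 508 untagged mutant nuclei (0.790, 0.774 to 0.807), and untagged mutant over untagged wt was 0.934 (0.914 to 0.953). The nuclear members stood at 1955 and 1685 CPM in these tagged and untagged mutant nuclei (1.16, 1.14 to 1.18), and untagged mutant over untagged wt was 0.961 (0.942 to 0.980). The untagged nuclei of that wider set differed in depth, with medians of 11877.5 UMIs in mutant and 24563 in wt. The tagged mutant nuclei of that set were deeper than the untagged ones, with a median of 21875 UMIs. Between 10000 and 20000 UMIs the median depths were 14957 and 14098.5 UMIs in tagged and untagged mutant nuclei, the 9 genes were known to be raised before they were used here, and nuclei of 1 library are not replicates. In mutant other nuclei of at least 5000 UMIs the mitochondrial level was 1275 CPM in 348 tagged and 1292 CPM in 545 untagged nuclei (0.987, 0.962 to 1.01). The nuclear level was 1949 and 2047 CPM (0.952, 0.933 to 0.972), and the median depths were 20055 and 15870 UMIs. Mutant over wt in other nuclei was 0.677 without and 0.682 with a tag for the mitochondrial members, and 1.06 (1.04 to 1.08) without and 0.926 (0.886 to 0.968) with a tag for the nuclear members, so the nuclear sum went the opposite way from dopamine nuclei.

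Within each library, dopamine nuclei had lower levels of both groups of members than other nuclei. The ratio of dopamine to other nuclei for the mitochondrial genes was 0.811 (0.796 to 0.826) in wt and 0.894 (0.882 to 0.907) in mutant. For the nuclear members it was 0.898 (0.881 to 0.914) in wt and 0.957 (0.946 to 0.968) in mutant. Complex V subunits encoded in the nucleus were at 0.885 (0.852 to 0.920) in wt and 1.00 (0.977 to 1.03) in mutant, and those of complex IV at 0.904 (0.852 to 0.960) and 0.872 (0.843 to 0.903). Other nuclei were the shallower class in both libraries, and the mitochondrial level was higher in shallow nuclei, as given above.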

How the data were processed

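Nuclei of adult mouse midbrain were sorted and made into 10x Single Cell 3' v3 libraries, per the labels' protocols. The deposited values are raw UMI counts, 1 row a gene and 1 column a nucleus, and the column name gives the genotype. Cell Ranger 3.1.0 and the build mm10 were used per the submitters' processing notes, which give no step for either. Counts were summed per library and class of nuclei and scaled to CPM. All nuclei were kept and no doublet caller was run. Gene positions came from GENCODE M21 and promoters from RefSeq GRCm38.p6. Python 3.11.15, numpy 2.4.6, scipy 1.17.1, pandas 2.3.3 and matplotlib 3.10.9 were used, and the calculations were tested on simulated data.

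The members and gene lists were chosen with earlier results of these data known. Named were all mitochondrial genes, nuclear members past 1.5-fold in either class, the 3 with the highest CPM in each complex, the 2 highest and 2 lowest log2 ratios in dopamine nuclei, the isoforms of Cox4i, Cox6a, Cox6b, Cox7a, Cox8, Atp5g and Ndufa4, and of each list the gene with the highest CPM. Ndufs5 was named for its promoter. Alternatives were another split of nuclei, nuclei of at least 5000 UMIs, removal of nuclei with glial or vascular markers or over 1% mitochondrial UMIs, median-of-ratios scaling, means over nuclei, a pseudocount of 1 CPM and a minimum of 10 UMIs. The genes Cox4i1, Cox6a2, Cox8b and Ndufa13 were not analysed here.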

Additional observations from a re-analysis of the deposited data

Results flagged for a closer look

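Ndufa7, an accessory subunit of complex I, differed in direction between the classes of nuclei. Its log2 ratio of mutant over wt was 0.13 in dopamine nuclei (15.1 CPM in wt, 17.0 CPM in mutant) and -0.24 in other nuclei (21.7 and 17.6 CPM), with each counting interval on its own side of no change. With 1 library per genotype the difference was not tested, and it was singled out after its values were seen.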

How the results depend on the processing

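Each mitochondrial gene with enough UMIs kept its sign in the alternatives recomputed gene by gene (12 of the 13 had a value in dopamine nuclei in 3 of them), and the summed ratios stayed on their side of 1 in the alternatives run on sums. For dopamine nuclei the summed mitochondrial ratio of 0.755 became 0.766 with dopamine nuclei at 10 or more and other nuclei under 2 marker UMIs per 10000, 0.738 with median-of-ratios scaling, 0.769 as a mean over nuclei and 0.703 in nuclei of 10000 to 40000 UMIs. The nuclear ratio of 1.09 became 1.11 without nuclei with glial or vascular markers, 1.07 with median-of-ratios scaling, 1.07 as a mean over nuclei and 1.11 in the depth window. For other nuclei the mitochondrial ratio of 0.685 became 0.770 as a mean over nuclei, 0.699 without nuclei holding a tag of the 9 raised genes and 0.642 in the depth window, and the nuclear ratio of 1.03 became 1.06 and 1.07 under the first pair of these. The count of mitochondrial genes past 1.5-fold lower went from 1 to 3 in dopamine nuclei with a pseudocount of 1 CPM and to 5 in the depth window, and from 5 to 8 in other nuclei in the depth window. The count of nuclear members called higher in other nuclei went from 0 to 1 with the other split and without glial nuclei, and to 2 with a pseudocount of 1 CPM. The count called lower there went from 1 to 0 without glial nuclei, with median-of-ratios scaling and in the depth window, and to 2 with a pseudocount of 1 CPM. The shares of all genes called under these settings are not given here, so the changes in count are not set against them. The depth window and the tag setting were chosen after seeing the data, and the cause of these changes was not tested. The limit of 1% mitochondrial UMIs removed no nucleus. No paired analysis was possible because the lane numbers are lanes of 1 library per genotype, which the table does not keep apart. Depth limits mt-Nd6, Cox4i2, Cox7a1 and Ndufa4l2, with few UMIs in either library.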
